A study of Homo sapiens with 46 samples.

Results

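MT-ATP8, MT-ATP6 and MT-CYB are 3 of the 13 protein-coding genes of mitochondrial DNA (mtDNA). They were chosen by gene name from the 58735 genes of the deposited count table. The paper counts 11 mRNAs, 2 of them bicistronic. Here an mRNA named by its gene, as in the 13 mtDNA-encoded mRNAs, stands for the counts of that gene. All 3 members passed the filter on low counts, together with 20272 genes in all. HEK293T cells, a transformed human embryonic kidney line, received for 48 hours 1 of 11 chimeras at 2 µM, each a morpholino (an antisense oligomer) coupled to pCox4, the import signal of a yeast mitochondrial protein, and added to the medium with EndoPorter. The chimeras are named ATP6, ATP8, COX1, COX2, COX3, CYTB, ND1, ND2, ND3, ND4L and ND5 after the mRNA they target, and the control received pCox4 without a morpholino. Each group has 4 libraries of poly(A)-enriched RNA, except COX2 and ND2 with 3, which makes 46 libraries of a line labelled wild type. Per the study's methods, batch 1 holds replicates 1 and 2 and batch 2 the rest, which were handled on other days with other reagent lots. COX2 and ND2 therefore have 1 library in batch 1. The study's methods call the libraries of a group biological replicates, without saying how their cultures were kept apart. All comparisons with the control rest on the same 4 control libraries. In RNA from whole cultures, a change in every cell and a larger change in part of the cells cannot be told apart.

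MT-ATP8 and MT-ATP6 encode small hydrophobic subunits of the membrane part of ATP synthase (complex V), and MT-CYB encodes cytochrome b, the only mtDNA-encoded subunit of complex III. MT-ATP8 and MT-ATP6 lie on a shared bicistronic mRNA and are read in different frames, so that the start codon of the latter lies inside the former. That mRNA is cut from a precursor at the junction with MT-CO3, where no tRNA marks the border. MT-CYB stands alone between MT-TE, a tRNA gene on the opposite strand, and MT-TT, a tRNA gene on its own strand.

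The target sites show how closely the chimeras for complex V and for COX3 sit on the transcript. Sequences were read from the GENCODE release 29 transcripts of GRCh38, to which all 58735 genes of the table match by identifier, start and end, and are written 5′ to 3′ as in the mRNA. The 3 sites shown follow the positions in the chimeras' names, counted from 1 at the A of each start codon. Capitals mark the MT-ATP6 start codon.
ATP8 chimera site: ccaactaaatactaccgtatggc
ATP6 chimera site: gagaaccaaaATGaacgaaaatctg
COX3 chimera site: tgacccaccaatcacatg
The ATP8 site is at chrM:8371-8393, inside MT-ATP8 (chrM:8366-8572). The ATP6 site at chrM:8517-8541 spans the MT-ATP6 start codon (MT-ATP6, chrM:8527-9207) and lies wholly inside the MT-ATP8 coding sequence as well. The COX3 site at chrM:9208-9225 begins right after the last base of MT-ATP6, within MT-CO3 (chrM:9207-9990). MT-CYB, the target of the CYTB chimera, is at chrM:14747-15887. All of these are on the plus strand.

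**Figure D1:**
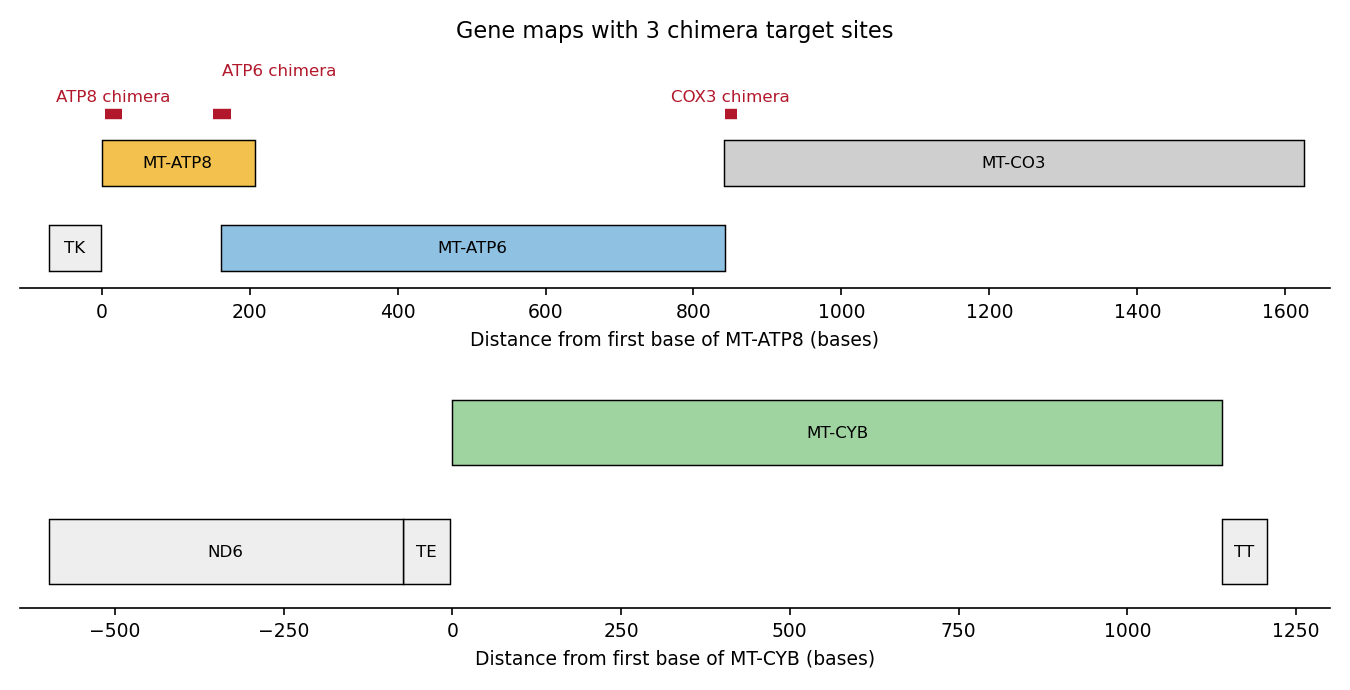
Positions of 3 target sites (red bars) on the ATP8, ATP6 and CO3 stretch (above), and MT-CYB with its neighbours (below), in bases from the first base of MT-ATP8 or MT-CYB; boxes are genes, TK, TE and TT are tRNA genes, and TE and ND6 lie on the other strand. The ATP6 site reaches from MT-ATP8 into its overlap with MT-ATP6, and the COX3 site begins right after MT-ATP6.

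The overlap itself is 46 bases long, chrM:8527-8572, shown with the MT-ATP6 start codon and the MT-ATP8 stop codon in capitals.
ATP8/ATP6 overlap: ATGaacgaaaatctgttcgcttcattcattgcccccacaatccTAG
At the other end of MT-ATP6, chrM:9196-9218, its last base is the first base of the MT-CO3 start codon, in capitals.
ATP6/CO3 junction: gacaacacataATGacccaccaa
How reads over shared bases were assigned, and whether counting used the strand, is not given in the sources used here. Reads of overlapping or opposite-strand genes therefore cannot be told apart in these counts.

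Counts per length stood far apart between the 3 genes. In the control, MT-ATP6 reached 4528 ± 497 RPKM, the CPM (counts scaled to library size) per kilobase of annotated length (SD, n = 4), rank 4 of the 13 mtDNA-encoded mRNAs, and MT-CYB reached 2106 ± 292 RPKM, rank 7. MT-ATP8 was the lowest of the 13, at 504 ± 103 RPKM, although it is annotated on the same transcript as MT-ATP6. Per length, MT-ATP6 exceeded MT-ATP8 by 9.15 ± 1.34-fold in the control, and by 5.66 to 13.9-fold over all 46 libraries. MT-CYB did not differ beyond the spread from its neighbours in that order, MT-ND2 at 2185 ± 245 RPKM and MT-ND4L at 2048 ± 332 RPKM. MT-ATP6 lay below MT-CO3 (6762 ± 697 RPKM) by more than the summed SDs, and above MT-ND4 (3636 ± 533 RPKM) by less than that. Leaving the 46 shared bases out of both lengths left the ranks at 4, 7 and 13. MT-ATP8 and MT-ATP6 lie on the same mRNA, and how reads over both were assigned is unknown. The gap between them therefore cannot be read as a difference in mRNA level.

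**Figure D2:**
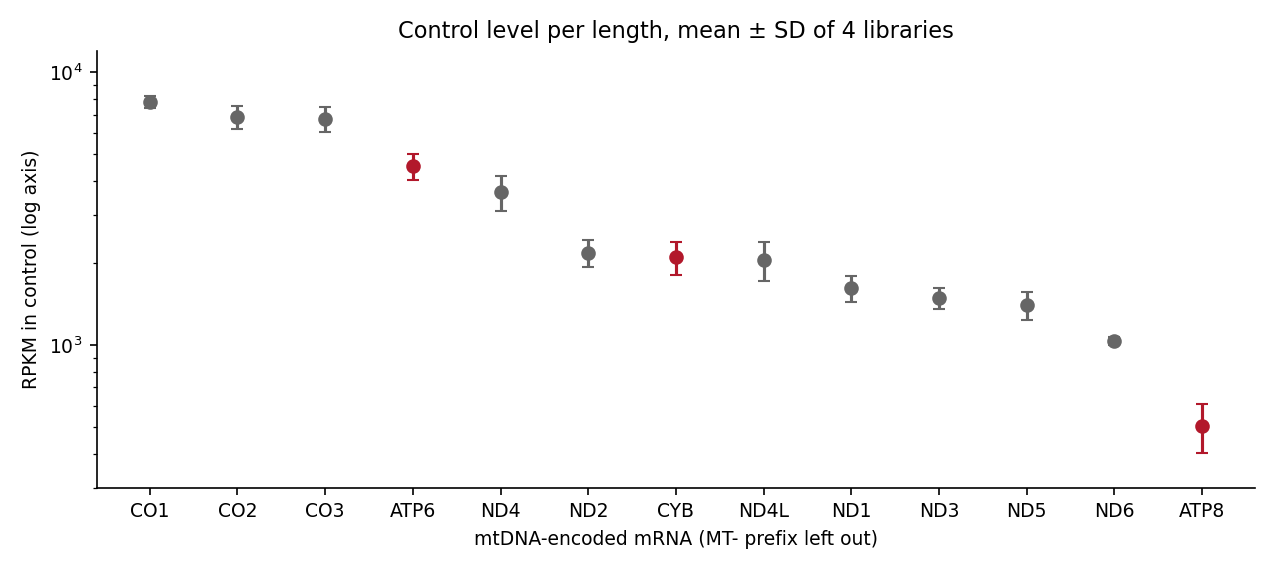
RPKM (log axis) of the 13 mtDNA-encoded mRNAs in the control, mean ± SD of 4 libraries, with MT-ATP6, MT-CYB and MT-ATP8 in red. MT-ATP6 holds rank 4, MT-CYB rank 7 and MT-ATP8 rank 13.

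Counts per library ranged from 52682 to 286764 for MT-ATP6, from 40300 to 308230 for MT-CYB and from 1481 to 8130 for MT-ATP8. Totals were 18876395 to 100698084 counts per library with a median of 23413171; the highest is COX3 replicate 4 and the next highest holds 28121898. Libraries of the same group and batch differed in log2 CPM with an SD of 0.086 for MT-ATP6, 0.098 for MT-CYB and 0.33 for MT-ATP8. For MT-ATP8 this is far above counting error, which at its lowest count is 2.6% of the value. Of the markers of HEK293 cells, KRT8, KRT18, VIM, CDH2, NEFL and EPCAM were at 84.3 CPM or more in every library, PAX2 at 4.97 to 9.82 CPM and NEFM at 0.461 to 2.03 CPM. PTPRC, COL1A2, ALB and MYH6, markers of other cell types, stayed at or below 0.533 CPM, while TTN reached 23.8 to 46.1 CPM and LUM 3.63 to 6.93 CPM.

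The batches differed in level, so treated libraries are compared with control libraries of their own batch. In the control, the mean of MT-ATP6 was 2829 CPM in batch 1 and 3339 CPM in batch 2, that of MT-CYB 2128 and 2679 CPM, and that of MT-ATP8 97.9 and 111 CPM. The raw CPM ranges of treated and control groups overlapped in all 33 pairs of a member and a treatment. Every library of a treatment lay below both control libraries of its own batch for MT-ATP6 after ATP6, ATP8 and COX3 silencing and for MT-CYB after CYTB and ND2 silencing. Over all genes tested, that happened for 4.22% after ATP6, 4.47% after ATP8, 4.99% after COX3, 6.86% after CYTB and 6.62% after ND2 silencing. Every library lay above both for MT-ATP6 after ND3 and for MT-CYB after COX1 silencing, against a background of 2.39% and 3.91%. No member did so in the other treatments, where the share of genes with every library below was 3.26% after COX1, 9.89% after COX2, 5.21% after ND1, 2.32% after ND3, 5.63% after ND4L and 4.94% after ND5 silencing. The share with every library above was 4.99% after ATP6, 5.05% after ATP8, 11.3% after COX2, 5.58% after COX3, 7.09% after CYTB, 6.46% after ND1, 6.28% after ND2, 6.14% after ND4L and 4.41% after ND5 silencing.

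**Figure D3:**
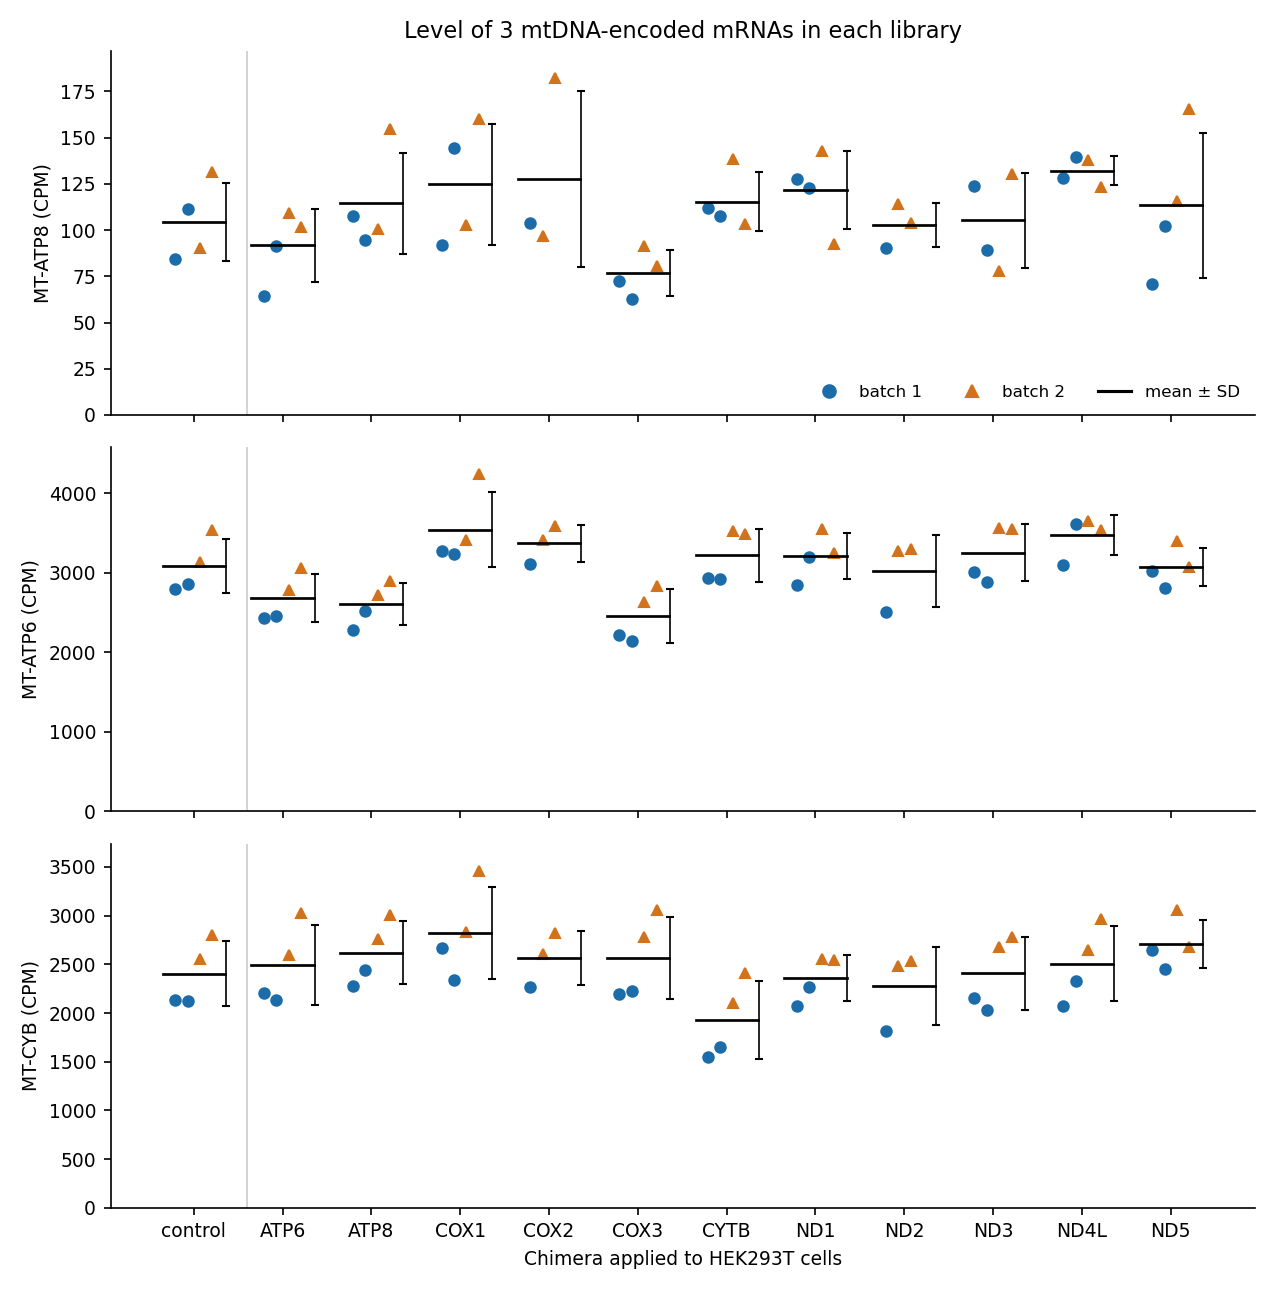
CPM of MT-ATP8, MT-ATP6 and MT-CYB in each of the 46 libraries by chimera, circles for batch 1 and triangles for batch 2, with the mean (line) and SD (bar) of each group. MT-CYB is lowest after CYTB silencing and MT-ATP6 after COX3 silencing, while the MT-ATP8 libraries of a group scatter widely.

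The first question was whether a chimera lowers the mRNA of the protein it silences. MT-CYB fell after CYTB silencing, whereas neither MT-ATP6 after ATP6 silencing nor MT-ATP8 after ATP8 silencing passed the test. Of the 33 tests of a member in a treatment, 2 were called at an adjusted p under 0.05, both lower than in the control (edgeR quasi-likelihood test), against 0.171% of all tests over the 11 treatments. Over the 13 mtDNA-encoded mRNAs, the members among them, edgeR called 5 higher and 5 lower in 143 tests, so calls were not particular to the members. At an unadjusted p under 0.05 there were 11, of which 5 for MT-ATP6, 5 for MT-CYB and 1 for MT-ATP8, where 9.79% of all tests were, from 3.31% after ND3 to 14.1% after ND4L silencing.

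**Figure D4:**
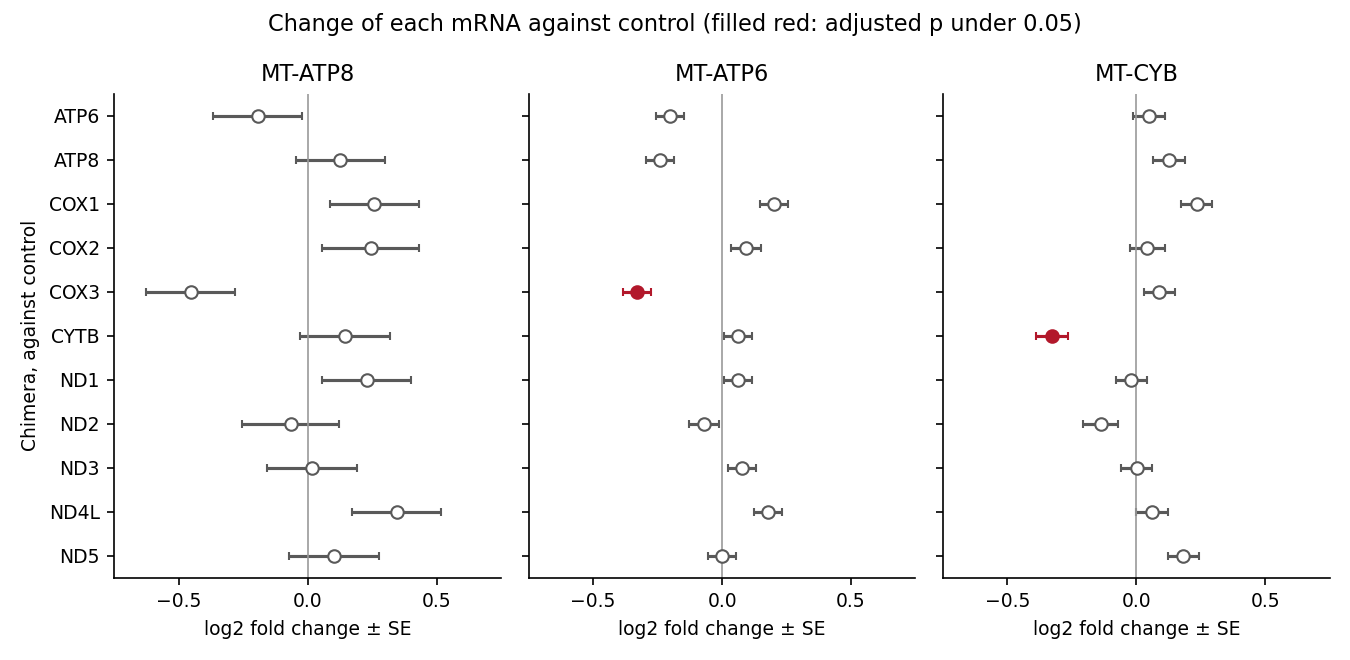
log2 fold change against the control ± SE for each mRNA (panels) after each of the 11 chimeras (rows), from the edgeR fit over all 46 libraries. Filled red points passed an adjusted p of 0.05: MT-ATP6 after COX3 silencing and MT-CYB after CYTB silencing.

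In the 4 libraries of CYTB silencing, MT-CYB stood at 1550, 1649, 2105 and 2416 CPM (replicates 1 to 4), or 72.8%, 77.5%, 78.6% and 90.2% of the control mean of the batch. The control libraries held 2136, 2120, 2558 and 2799 CPM. All 4 treated libraries were below both controls of their batch. The log2 fold change was -0.33 (SE 0.061, adjusted p = 0.00449, edgeR), a fold of 0.798, where 0.548% of all genes were called. Against the mean of the other 10 treatments, a contrast that uses no control library, MT-CYB was lower by a log2 difference of -0.39 (SE 0.047, adjusted p = 3.62e-07), where 0.0592% of genes were called. The call against the control was not made in batch 2 alone (-0.25, adjusted p = 0.369), without CYTB replicate 1 (-0.28, adjusted p = 0.0702) or without control replicate 4 (-0.30, adjusted p = 0.054). In batch 1 alone it was made (-0.41, adjusted p = 0.0136).

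The other members did not pass the test after CYTB silencing. MT-ATP6 had a log2 fold change of 0.06 (95% interval -0.05 to 0.17) and MT-ATP8 of 0.14 (-0.20 to 0.49). Of the 13 mtDNA-encoded mRNAs, DESeq2 called 2 after CYTB silencing, both lower. These were MT-CYB (log2 fold change -0.32, adjusted p = 0.000493) and MT-ND2, which the chimera does not target (-0.24, adjusted p = 0.0239). Next to MT-CYB, a signal also appeared on MT-TE, the gene for the glutamate tRNA on the opposite strand (chrM:14674-14742) just before MT-CYB. Its counts were 608, 619, 430 and 330 after CYTB silencing and 44, 43, 56 and 34 in the control, which is 21.0 ± 5.1 against 2.06 ± 0.50 CPM (SD, n = 4 each). The groups did not overlap, and the log2 fold change was 3.35 (SE 0.197, adjusted p = 1.45e-18, edgeR). In the other treatments MT-TE stayed between 1.28 and 4.15 CPM. Whether these counts come from MT-TE or from the strand of MT-CYB cannot be told apart. MT-TT, the threonine tRNA gene behind MT-CYB, was at 0.82 ± 0.24 CPM after CYTB silencing and 0.67 ± 0.22 CPM in the control (adjusted p = 0.759).

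The ATP6 and ATP8 chimeras are directed at the same bicistronic mRNA, and in both treatments the MT-ATP6 values lay below those of the control of their batch without passing the test against it. After ATP6 silencing MT-ATP6 stood at 2430, 2462, 2783 and 3067 CPM, and after ATP8 silencing at 2284, 2516, 2728 and 2901 CPM. The control held 2792, 2866, 3138 and 3540 CPM. The 8 treated libraries held 83.4% to 91.9% of the control mean after ATP6 silencing and 80.7% to 88.9% after ATP8 silencing. Over all genes neither passed against the control, with log2 fold changes of -0.20 (SE 0.055, adjusted p = 0.207, edgeR; 0.00987% of genes called) and -0.24 (SE 0.055, adjusted p = 0.0649; 0.0641% called). With the replicate number as a block in place of the batch, the second passed (adjusted p = 0.0209) and the first did not (adjusted p = 0.139). MT-ATP6 after ATP8 silencing also passed in DESeq2 (-0.24, adjusted p = 0.0125), with library sizes from nuclear genes, with no filter, with a minimum mean of 10 CPM and with only the libraries compared. It did not pass without a batch term, in either batch alone, with RLE factors, with library sizes from the 13 mtDNA-encoded mRNAs or with MTATP6P1 counts added.

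Against the other 10 treatments, MT-ATP6 was lower after ATP8 silencing by a log2 difference of -0.25 (SE 0.041, adjusted p = 0.00187, edgeR), where 0.0148% of genes were called. After ATP6 silencing the difference was -0.20 (SE 0.041, adjusted p = 0.0591; 0.00987% called), and with the replicate block it passed (adjusted p = 0.0225). The call after ATP8 silencing was not made without ATP8 replicate 1 (-0.23, adjusted p = 0.184), in batch 1 alone (-0.25, adjusted p = 0.145) or in batch 2 alone (-0.25, adjusted p = 0.634).

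For MT-ATP8 the error was wider. After ATP8 silencing it stood at 108, 94.5, 101 and 155 CPM, against 84.4, 111, 90.6 and 131 CPM in the control, so the groups overlapped within both batches. Its log2 fold change was 0.13 (95% interval -0.22 to 0.47, adjusted p = 0.855), and it turned to -0.01 without ATP8 replicate 4. After ATP6 silencing MT-ATP8 stood at 64.4, 91.6, 109 and 102 CPM with a log2 fold change of -0.19 (-0.54 to 0.15, adjusted p = 0.775). Here too the groups overlapped.

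Compared with each other, the ATP8 and ATP6 chimeras gave no called difference in any member, nor in any of the 20272 genes (edgeR, percent called 0). The log2 difference, ATP8 minus ATP6 silencing, was -0.04 for MT-ATP6 (95% interval -0.15 to 0.07), 0.08 for MT-CYB (-0.04 to 0.20) and 0.32 for MT-ATP8 (-0.03 to 0.67). Their unadjusted p-values were 0.449, 0.207 and 0.0704 in this edgeR test, so none was under 0.05. Over all genes 4.3% had an unadjusted p under 0.05. DESeq2 called 0 genes, edgeR with only the libraries compared called 3, and edgeR with no filter called 21. MT-CYB, which lies elsewhere on mtDNA, had log2 fold changes of 0.05 after ATP6 silencing (-0.07 to 0.17) and 0.13 after ATP8 silencing (0.0046 to 0.25, adjusted p = 0.463).

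The largest fall of MT-ATP6 among the 11 treatments followed silencing of COX3, its downstream neighbour. MT-ATP6 stood at 2218, 2141, 2637 and 2841 CPM, which is 78.4%, 75.7%, 79.0% and 85.1% of the control mean of the batch. All 4 libraries lay below both controls of their batch. The log2 fold change was -0.33 (SE 0.055, adjusted p = 0.000696, edgeR), a fold of 0.796, where 0.306% of genes were called. Against the other 10 treatments, a contrast added after the values were seen, it was -0.35 (SE 0.042, adjusted p = 4.71e-07), where 0.0543% of genes were called. The call against the control was made whichever of the 8 libraries was left out (adjusted p 0.000418 to 0.0129), including that without COX3 replicate 4, the deepest library. In batch 2 alone it was not made (-0.29, adjusted p = 0.181).

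MT-CO3, the target, stood at 3260, 3364, 4137 and 4351 CPM in the same libraries against 5077, 4633, 5756 and 5741 CPM in the control, 67.2% to 75.7% of the control mean. Its groups did not overlap, and it fell by 0.49 on the log2 scale (SE 0.065, adjusted p = 9.99e-06). MT-ATP8, upstream of both on the transcript, was at 72.2, 62.5, 91.5 and 80.6 CPM after COX3 silencing, 63.8% to 82.5% of the control mean. 3 of these 4 libraries lay below both controls of their batch, and the log2 fold change of -0.45 (SE 0.17, 95% interval -0.80 to -0.11) was the lowest of MT-ATP8 but did not pass over all genes (adjusted p = 0.297). It did not pass in 9 of 11 alternative fits either, and passed with no filter and with only the libraries compared. MT-CYB was at 103% to 114% of the control mean, with a log2 fold change of 0.09 (-0.03 to 0.21).

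After the other 7 chimeras no member was called, where 0.0543% of genes were called after COX1, 0.469% after COX2, 0.0888% after ND1, 0.0247% after ND2, 0.00987% after ND3, 0.148% after ND4L and 0.158% after ND5 silencing. COX1 silencing gave the highest fitted fold changes of MT-ATP6 and MT-CYB, whose libraries stood at 102% to 127% and 106% to 129% of the control mean. The log2 fold changes were 0.20 (SE 0.055, adjusted p = 0.244) and 0.23 (SE 0.061, adjusted p = 0.218). Relative to the 13 mtDNA-encoded mRNAs alone these became 0.31 (adjusted p = 0.00173) and 0.35 (adjusted p = 0.000497), a scaling in which MT-CO1, which fell in these libraries (log2 fold change -1.33, adjusted p = 2.25e-21), takes part. That scaling moved the median of all genes by -0.06 to 0.12 over the comparisons, against less than 0.04 for every other setting. ND4L silencing gave the highest fitted fold change of MT-ATP8, a log2 value of 0.35 (SE 0.17, adjusted p = 0.355) at 128, 140, 138 and 123 CPM, although single libraries of other treatments were higher, up to 182 CPM in COX2 replicate 4. This fold change also failed in 9 of 11 alternative fits, and passed with no filter and with only the libraries compared. In the ND4L libraries MT-ATP6 had a log2 fold change of 0.18 (SE 0.055, adjusted p = 0.118). MT-CYB had a log2 fold change of 0.18 after ND5 silencing (SE 0.061, adjusted p = 0.265) and of -0.14 after ND2 silencing (SE 0.066, adjusted p = 0.998). The remaining values of the members lay between -0.07 and 0.26 on the log2 scale.

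Averaged over the 11 treatments no member was called. The log2 difference from the control was -0.02 for MT-ATP6 (95% interval -0.10 to 0.07), 0.03 for MT-CYB (-0.06 to 0.12) and 0.07 for MT-ATP8 (-0.19 to 0.33). Of all genes 0.261% were called (edgeR), and the unadjusted p-values were 0.71, 0.549 and 0.601.

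Ratios of counts within a library need no library size and were compared by exact two-sided permutation tests over libraries, 3 ratios in 11 treatments. Of the 3 ratios, MT-CYB per MT-ATP6 was separated from the control in the most treatments. It was 76.5%, 74.0%, 81.5% and 79.1% in the control and 52.7%, 56.3%, 59.6% and 69.2% after CYTB silencing. It was 90.6%, 86.9%, 93.1% and 98.9% after ATP6 silencing. After ATP8 silencing it was 99.5%, 97.1%, 101% and 104%, and after COX3 silencing 98.8%, 104%, 105% and 107%. All of these, and the 87.2% to 89.9% after ND5 silencing, lay outside the control range, and in no other treatment was this ratio separated from the control. Differences in mean log2 ratio, treated minus control, were -0.39 for CYTB, 0.25 for ATP6, 0.37 for ATP8, 0.42 for COX3 and 0.18 for ND5. Each had an exact p = 0.0286, the smallest that 4 against 4 libraries allow, and an adjusted p = 0.135 over the 33 tests. Among the ratios between any pair of the 13 mtDNA-encoded mRNAs, groups did not overlap for 23.1% after CYTB, 8.97% after ATP6, 7.69% after ATP8, 43.6% after COX3 and 25.6% after ND5 silencing. The direction was the same in each batch alone, with differences of 0.14 to 0.43 in size for ATP6, ATP8, COX3 and ND5 and of -0.47 and -0.32 for CYTB.

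MT-ATP6 per MT-CO3 crosses the junction at which the precursor is cut. It was 54.5% to 61.9% in the control, and 63.6% to 68.0% after COX3 silencing, above all control values. ND4L silencing (63.2% to 68.8%) and ND2 silencing (64.2% to 69.5%) were also above the control range, with exact p = 0.0286 and 0.0857. The share of all such ratios without overlap was 15.4% after ND4L and 20.5% after ND2 silencing. After ATP8 silencing the ratio was 48.0%, 49.1%, 56.9% and 52.9%, which overlaps the control (exact p = 0.114). MT-ATP8 per MT-ATP6 was 2.89% to 3.89% in the control and 3.69% to 5.33% after ATP8 silencing, a difference of 0.37 in mean log2 ratio with overlapping groups (exact p = 0.143). It was 2.65% to 3.93% after ATP6 silencing (exact p = 0.914).

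In all, 8 of the 33 ratio comparisons had groups that did not overlap, 0 passed an adjusted p of 0.05 and 7 had an exact p under 0.05. The exact p cannot fall below 0.0286, so passing would have needed most of the 33 tests at that floor. The lack of calls therefore says little about the ratios. With labels permuted only within batches the smallest possible p is 0.0556, so that none could pass. Among all 858 comparisons of a ratio between any of the 13 mtDNA-encoded mRNAs in a treatment, 22.5% did not overlap, so the count over the members is close to this background. It was 26.9% after COX1, 24.4% after COX2, 34.6% after ND1 and 16.7% after ND3 silencing, where no ratio of the members was separated from the control.

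**Figure D5:**
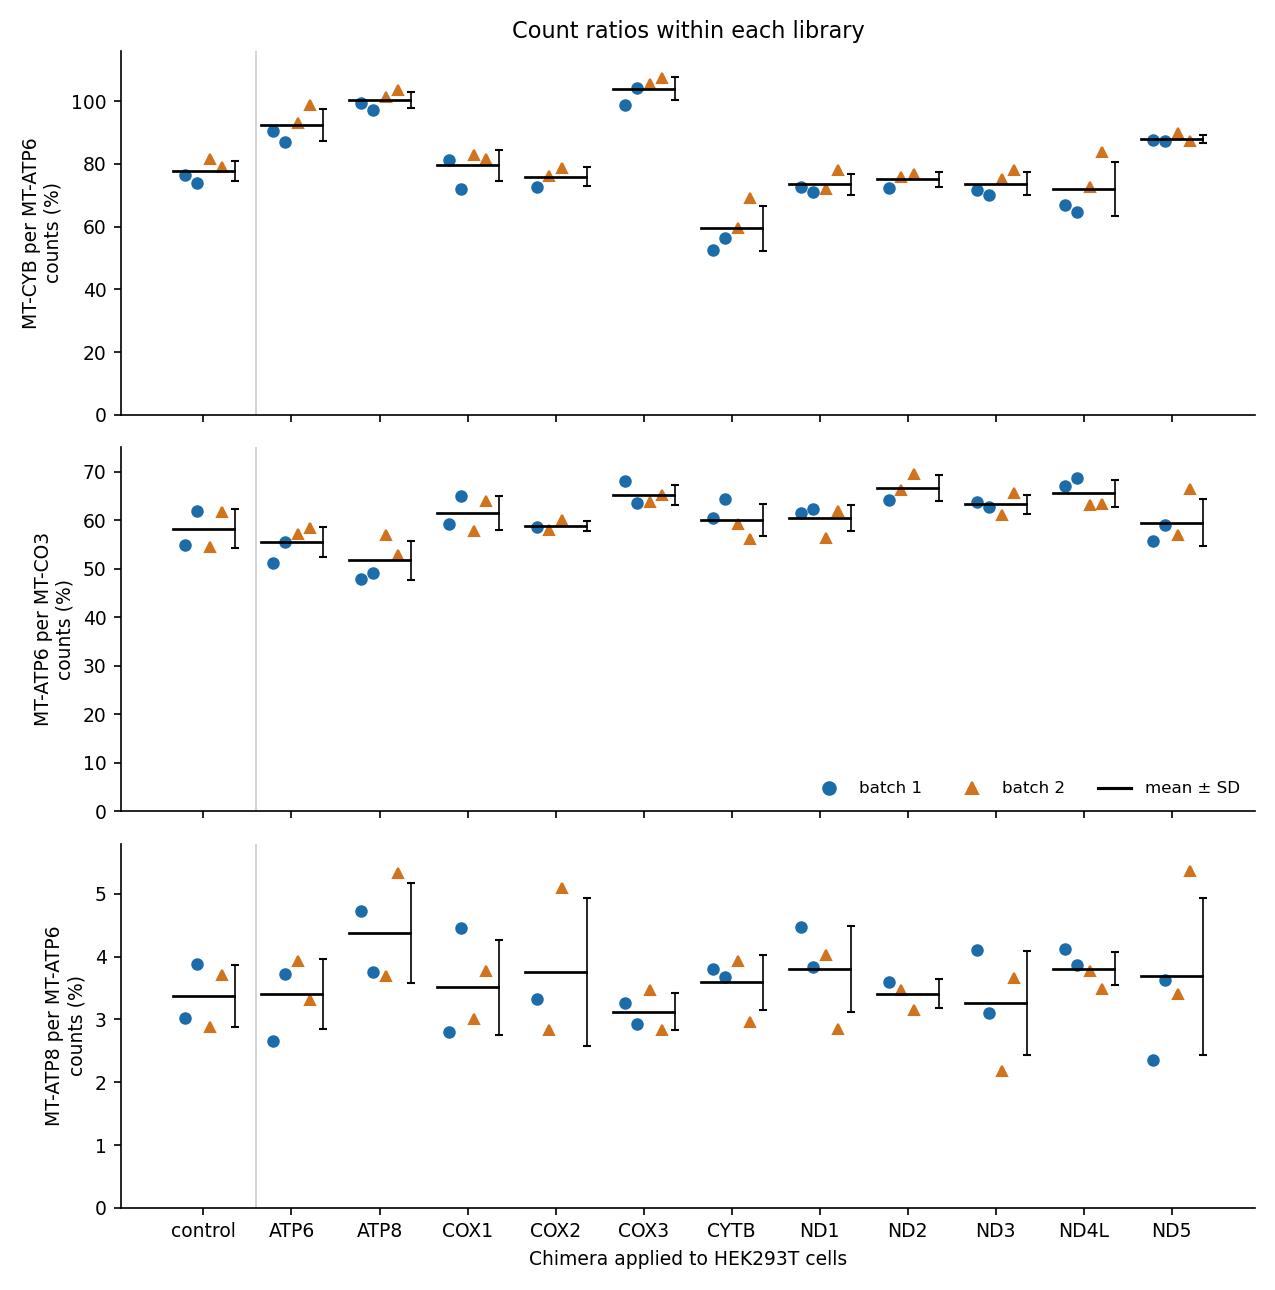
Count ratios within each library in percent, for MT-CYB per MT-ATP6, MT-ATP6 per MT-CO3 and MT-ATP8 per MT-ATP6, by chimera, with symbols for the batches and the mean ± SD of each group. MT-CYB per MT-ATP6 lies below the control after CYTB silencing and above it after ATP6, ATP8, COX3 and ND5 silencing.

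Nuclear copies of mtDNA can share reads with these genes. The table lists 69 copies by name, 2 of MT-ATP8, 25 of MT-ATP6 and 42 of MT-CYB, of which only MTATP6P1 had a mean of at least 1 CPM. MTATP6P1 (1:633696-634376) differs from MT-ATP6 at 10 of 681 bases, so that 46.7% of all windows of 50 bases are identical between them. It was at 206 ± 20 CPM in the control, and its counts equalled 4.34% to 9.72% of those of MT-ATP6 over the libraries. After COX3 silencing it stood at 96.4, 103, 131 and 230 CPM, with a log2 fold change of -0.60 (SE 0.15, adjusted p = 0.07), the highest of these values being that of the deepest library. Counts of the copy and of MT-ATP6 cannot be told apart fully, and adding them left MT-ATP6 at -0.34 after COX3 silencing (adjusted p = 0.000688).

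The protein partners encoded in the nucleus had no called change in edgeR's test. In the lists used, 18 nuclear subunits and 5 assembly factors of complex V, 9 nuclear subunits and 6 assembly factors of complex III and 22 factors of mitochondrial RNA processing were tested in 11 treatments, and edgeR called 0. At an unadjusted p under 0.05 there were 41 of 198 tests for complex V subunits, 27 of 99 for complex III subunits, 27 of 242 for RNA processing, 8 of 66 and 2 of 55 for the assembly factors of complexes III and V. As shares these are 20.7%, 27.3%, 11.2%, 12.1% and 3.64%, against 9.79% of all tests. DESeq2 called 4 of the 660 list tests, where it called 0.954% of all its tests with an adjusted p, 2.5% after CYTB and 2.84% after ND4L silencing. These were ATP5ME (log2 fold change 0.55, adjusted p = 0.0485) and CYC1, cytochrome c1 of complex III (0.22, adjusted p = 0.0366), after CYTB silencing, ATP5IF1, the inhibitor of ATP synthase (0.27, adjusted p = 0.044), after ND4L silencing and FASTKD5, a mitochondrial RNA processing factor (-0.22, adjusted p = 0.0234), after ND5 silencing. After CYTB silencing the median log2 fold change was 0.11 over the complex III subunits, 8 of 9 positive, and after ATP6 and ATP8 silencing it was 0.05 and 0.13 over the complex V subunits, 15 and 16 of 18 positive. Other treatments gave like values. The complex III median was 0.15 after ND1, 0.14 after COX2 and 0.11 after ATP8 silencing, with 9 of 9 positive in each, and the complex V median was 0.19 after ND1 and 0.09 after CYTB silencing, with 17 of 18 positive in both. The median over all genes was between -0.0032 and 0.004 in the 11 treatments.

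By the steadiness of the log2 count ratio over the 46 libraries, after removal of batch means, the gene most like MT-ATP6 was its neighbour MT-CO3, with an SD of 0.12 against a median of 0.21 over 10429 genes. Next came TRAPPC9, BRI3, RTL8C and ARMCX3 at 0.15 each. For MT-CYB the closest were RPGRIP1L, OCLN, FOXJ3, SIPA1L1 and WSB1, all nuclear and at 0.15, against a median of 0.19. MT-ATP8 had TMSB10, PTGR1, MT-ATP6, AL078621.1 and TBCA at 0.28 to 0.29, against a median of 0.35.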

How the data were processed

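RNA of 46 libraries was enriched for poly(A) tails by the authors and sequenced, and the deposited table holds raw counts of reads per gene with no normalization. The submitters' processing notes name GRCh38.p12, R 4.3.0, DESeq2 1.40.2 and limma 3.56.2. Which aligner and counter made the table, and whether strand was used, is not given in the sources used here, and read layout differs between the sources (paired-end in the methods, single-end in the labels). Groups came from the sample labels and batches from the methods.

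Counts were tested with edgeR 4.0.16 in R 4.3.3 (quasi-likelihood F test, TMM, filterByExpr with a minimum count of 10, terms for group and batch, all 46 libraries), with Benjamini-Hochberg adjustment over 20272 genes and a threshold of 0.05. CPM and RPKM were computed here from TMM-scaled library sizes. A log2 fold change carries the standard error and 95% interval of that fit. Ratios were tested with scipy 1.17.1 by exact permutation. The edgeR test was run on counts simulated for CYTB against control over 20272 genes. It called 71 of 100 genes changed 2-fold and 51 of 100 changed 1.5-fold, none in the wrong direction, with 7.58% false calls. The simulated counts held no batch difference, and their changes were larger than those called for the members, so the run does not give the power at those sizes. A first criterion of 80 of 100 at 2-fold was not met and was replaced by criteria on direction, effect size and false calls. The 3 members, the gene lists and the named neighbours, copies and most similar genes were chosen with earlier results of these data known. The named genes were the members, the other mtDNA-encoded mRNAs and flanking genes, copies with a mean of at least 1 CPM, the 5 genes of at least 10 CPM most like each member, and at most 5 called genes per nuclear list.

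The main test had no replicate block, and the numbers were checked for pairing. In 42 of 42 pairs of a treated and a control library of the same number, deviations from the group means correlated above 0.1 (0.116 to 0.329), and these deviations include the batch, so the fit with the replicate number as a block was run as an alternative. No 2 replicates looked like 1 library (66 pairs, chi-square per degree of freedom 3.47 to 23.4). Alternatives were no batch term, a replicate block, DESeq2 1.42.0, RLE factors, library sizes from nuclear genes or from the 13 mtDNA-encoded mRNAs, other filters, only the libraries compared, single batches and each library left out. Counting errors cover counting alone. The CYTB target site is not reported here.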

Additional observations from a re-analysis of the deposited data

Results flagged for a closer look

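Within groups of 4 libraries, 60 sets of values of the members and their ratios were examined for a library standing apart by Dixon's criterion, and 2 were found, where chance gives about 1 in 20. MT-ATP6 per MT-CO3 was 56.4% in ND1 replicate 3, while the other ND1 libraries held 61.4% to 62.2%. MT-CYB per MT-ATP6 was 72.1% in COX1 replicate 2, while the other COX1 libraries held 81.4% to 83.0%.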

How the results depend on the processing

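Without a batch term the log2 differences of the called results were -0.32 for MT-CYB after CYTB silencing, -0.33 for MT-ATP6 after COX3 silencing and, against the other treatments, -0.39 (MT-CYB, CYTB), -0.26 (MT-ATP6, ATP8) and -0.35 (MT-ATP6, COX3), none passing. In batch 2 alone they were -0.25, -0.29, -0.30, -0.25 and -0.30, none passing, and in batch 1 alone only MT-ATP6 after ATP8 silencing against the others did not pass (-0.25). MT-ATP6 after ATP6 silencing against the others passed with the replicate block (-0.20), with library sizes from nuclear genes (-0.20), with no filter (-0.21) and in DESeq2 (-0.20). With no filter, MT-ATP6 after ATP6 silencing (-0.20) and MT-ATP8 between the ATP8 and ATP6 chimeras (0.32) passed as well. The 2 calls among 33 tests became 0 without a batch term or in batch 2 alone, 4 with library sizes from the 13 mtDNA-encoded mRNAs, 13 with no filter and 5 with only the libraries compared, and the 0 calls between the ATP8 and ATP6 chimeras became 1 with no filter. The replicate block changed no other call than those given with the results. The cause was not tested.

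Some values that were not called changed sign. Among the fits and the ratios recomputed under alternatives these were MT-ATP8 after ND2 silencing (0.000078) and MT-CYB after COX2 (-0.0086) and ND3 silencing (-0.0024) with sizes from the 13 mtDNA-encoded mRNAs, MT-CYB after ND3 silencing with nuclear sizes (-0.0053), a minimum of 10 CPM (-0.0019) and batch 1 alone (-0.024), MT-ATP6 after ND5 silencing with the replicate block (0.0017), no filter (0.0041), a minimum of 10 CPM (0.0032), batch 1 alone (0.041) and MTATP6P1 added (0.014), MT-ATP8 after ND3 silencing in batch 2 (-0.094), and in batch 1 MT-ATP8 after ND5 (-0.19), MT-CYB after ND1 (0.032) and log2 MT-ATP8 per MT-ATP6 after ATP6 silencing (-0.13). Of the other ratios, MT-ATP8 per MT-ATP6 turned in batch 1 after COX2 (-0.041), ND3 (0.056) and ND5 silencing (-0.23), and MT-ATP6 per MT-CO3 in batch 2 after CYTB (-0.0071) and in batch 1 after ND5 silencing (-0.024).

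Leaving out each library in turn gave -0.39 to -0.28 for MT-CYB after CYTB silencing, -0.28 to -0.23 for MT-ATP6 after ATP8 and -0.23 to -0.18 after ATP6 silencing against the others, and 1 to 3 calls among the 33 tests. Ranges that crossed 0 were, for MT-ATP8, -0.012 to 0.21 after ATP8 silencing, -0.074 to 0.15 for it against the others, -0.027 to 0.15 for the mean of 11 treatments, -0.046 to 0.43 after COX2, -0.16 to 0.023 after ND2, -0.12 to 0.16 after ND3 and -0.095 to 0.25 after ND5 silencing. For MT-ATP6 they were -0.043 to 0.017 for the mean of 11 and -0.036 to 0.036 after ND5, for MT-CYB -0.059 to 0.0018 after ND1 and -0.022 to 0.025 after ND3, and for MT-ATP8 per MT-ATP6 -0.067 to 0.12 after ATP6, -0.080 to 0.14 after COX1, -0.12 to 0.30 after COX2, -0.048 to 0.095 after ND2, -0.20 to 0.10 after ND3 and -0.12 to 0.27 after ND5 silencing. MT-ATP6 per MT-CO3 crossed 0 after COX2 (-0.014 to 0.047) and ND5 silencing (-0.023 to 0.061). The fits of COX3 against the others, of the mean of 11 and of ratios by batch or without a library were chosen after seeing the data.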
